A study of Mus musculus with 4 samples.

Results

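This account covers 10 genes with which endothelium, the inner lining of blood vessels, controls clotting: Vwf, F8, Thbd, Procr, Tfpi, Plat, F2r, Entpd1, Mmrn1 and Mmrn2. They were taken by symbol from a table of 24346 genes, and all 10 were found in it. RNA had been sequenced from heart endothelial cells of young mice on a C57BL/6 background, purified by FACS and labelled as freshly isolated. There are 2 libraries of ECp53KO (ECp53KO_170 and ECp53KO_172), a label that the sources do not spell out; it is taken here to mean that endothelial cells lack p53, from the wording of the title. There are 2 libraries of Ctrl (Ctrl_178 and Ctrl_182), labelled wild type. The labels name neither the Cre driver nor the deleted exons, list no other treatment, and do not state that the libraries are from different mice, so the spread behind the p-values may be technical. Levels are FPKM (fragments scaled by transcript length and sequencing depth) as deposited, which allows genes to be compared per length, and the 2 values of a group follow the order of its library numbers.

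Resting endothelium keeps blood fluid and starts clotting only when injured. It holds von Willebrand factor, the protein that tethers platelets and carries factor VIII, in storage granules. On its surface thrombomodulin turns thrombin into an activator of the anticoagulant protein C, which the endothelial protein C receptor presents. TFPI blocks the start of coagulation, and the ectonucleotidase CD39 removes the ADP that activates platelets. Tissue plasminogen activator, which endothelium releases, starts the breakdown of fibrin.

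None of the haemostasis genes passed the test between the genotypes. Of 9 tested members, 0 were called at a limma adjusted p under 0.05 and 0 had an unadjusted limma p under 0.05, where 0.115% and 4.78% of all 11332 tested genes did. Among the tested members Vwf and F2r showed the largest differences, with ECp53KO means at 0.759 and 0.754 of the Ctrl means. Their unadjusted limma p-values were 0.0549 and 0.0595, just above 0.05. The tested genes were those with a mean of at least 1 FPKM, and F8 fell below that. Values were compared as log2(FPKM + 1), and each fold change is ECp53KO minus Ctrl in these units, in which changes of low genes appear smaller.

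The 4 libraries, the targeted gene and the sort were looked at once. Estimated depth was 11500000 and 10000000 fragments in the ECp53KO libraries, against 11000000 and 22700000 in the Ctrl libraries. Trp53, which encodes p53, stood at 4.41 and 2.45 FPKM in the ECp53KO libraries, against 52.1 and 28.8 FPKM in the Ctrl libraries, with a log2 fold change of -3.20 ± 0.36 (SE, limma adjusted p = 0.146). The pan-endothelial markers summed to 6848 and 6707 FPKM in the ECp53KO libraries, against 6687 and 6549 FPKM in the Ctrl libraries. VE-cadherin (Cdh5) stood at 982 and 958 FPKM in the ECp53KO libraries, against 1098 and 1022 FPKM in the Ctrl libraries. Of the 12 pan-endothelial markers tested, 5 had a positive and 7 a negative fold change, and 0 passed. Without overlap between the groups, 4 were higher and 3 lower in ECp53KO (19.1% and 16.8% of all tested genes were). ECp53KO_170 stood apart, since its deviation from the mean of the 4 libraries was negatively related to transcript length over 11273 genes, which are not replicates (Spearman's rho -0.43, against 0.32 in ECp53KO_172 and 0.15 and 0.22 in Ctrl). Its erythroid markers summed to 344 FPKM, against 89.2 FPKM in ECp53KO_172 and 60.3 and 33.5 FPKM in the Ctrl libraries. Markers of mural cells, the smooth muscle cells and pericytes around vessels, summed to 151 and 124 FPKM in ECp53KO, against 80.8 and 102 FPKM in Ctrl. Of the 6 mural markers tested, 6 had a positive fold change, 3 (Acta2, Tagln and Rgs5) were higher in each ECp53KO library than in each Ctrl library (19.1% of all tested genes were) and 0 passed. Acta2, smooth muscle actin, stood at 21.3 and 16.8 FPKM in ECp53KO, against 7.73 and 9.78 FPKM in Ctrl (log2 fold change 1.04 ± 0.20, limma adjusted p = 0.864). Cardiomyocyte markers summed to 255 and 152 FPKM in ECp53KO, against 153 and 134 FPKM in Ctrl. The part of these differences in the results below was not tested, other than by the fits without that library and without the length trend. In bulk RNA, fewer cells of a type and less RNA per cell cannot be told apart.

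Promoter sequence is shown for F2r and Mmrn1, since they were lower in each ECp53KO library than in each Ctrl library and RefSeq's promoter table (GRCm38.p6) holds them. That table has windows for 6 of the members. The sequences are the 250 bases before the annotated start, 5′ to 3′ on the gene's strand, at chr13:95618467-95618716 (minus strand) for F2r and chr6:60944067-60944316 (plus strand) for Mmrn1. Capitals mark each match, on either strand, to GGGCGG (the GC box), CACCC (bound by Krüppel-like factors), CCGGAA (an ETS core), TGANTCA (the AP-1 site), TATAAA (the TATA box), GATAA (the GATA motif) or the p53 half-site.
F2r: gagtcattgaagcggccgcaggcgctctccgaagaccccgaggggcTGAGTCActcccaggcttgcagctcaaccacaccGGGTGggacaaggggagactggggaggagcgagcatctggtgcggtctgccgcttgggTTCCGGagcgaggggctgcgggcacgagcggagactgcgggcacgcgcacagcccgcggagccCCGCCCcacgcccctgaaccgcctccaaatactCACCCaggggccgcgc
Mmrn1: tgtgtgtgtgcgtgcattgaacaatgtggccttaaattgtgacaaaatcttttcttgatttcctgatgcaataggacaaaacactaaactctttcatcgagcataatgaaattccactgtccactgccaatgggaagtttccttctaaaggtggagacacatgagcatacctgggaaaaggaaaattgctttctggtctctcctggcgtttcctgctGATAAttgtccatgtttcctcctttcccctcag
The 2 windows differ in make-up. That of F2r is 70.8% G and C and holds 1 GC box, 2 Krüppel-like factor motifs, 1 ETS core and 1 AP-1 match, while that of Mmrn1 is 42.4% G and C and holds 1 GATA motif. Across all 32851 windows of this length the median was 52.4%, and 32.7% held the GC box, 52.0% the Krüppel-like factor motif, 12% the ETS core, 6.7% the AP-1 site, 12.4% the TATA box and 22.6% the GATA motif. The p53 half-site, found in 7.1% of windows, matched in neither, which says only that these letters are not in these windows. The matches are descriptions of sequence and not of binding, and whether transcription begins at these annotated starts was not tested.

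The members' levels in single libraries ran from 0.435 to 392 FPKM. Thbd and Mmrn2 were the most abundant and together made up 68.7% and 72.5% of the members' summed FPKM in the ECp53KO libraries, and 71.4% and 70.4% in Ctrl_178 and Ctrl_182. By mean level the order was Thbd, Mmrn2, Plat, F2r, Entpd1, Vwf, Tfpi, Procr, Mmrn1 and F8. The ranges over the 4 libraries were apart for Thbd and Mmrn2, Mmrn2 and Plat, Entpd1 and Vwf, Tfpi and Procr, Procr and Mmrn1, and Mmrn1 and F8. They overlapped for Plat and F2r, F2r and Entpd1, and Vwf and Tfpi, although F2r stood above Entpd1 within each of the 4 libraries. Vwf and Tfpi could not be ordered, with Vwf the higher in 2 of 4 libraries.

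**Figure D1:**
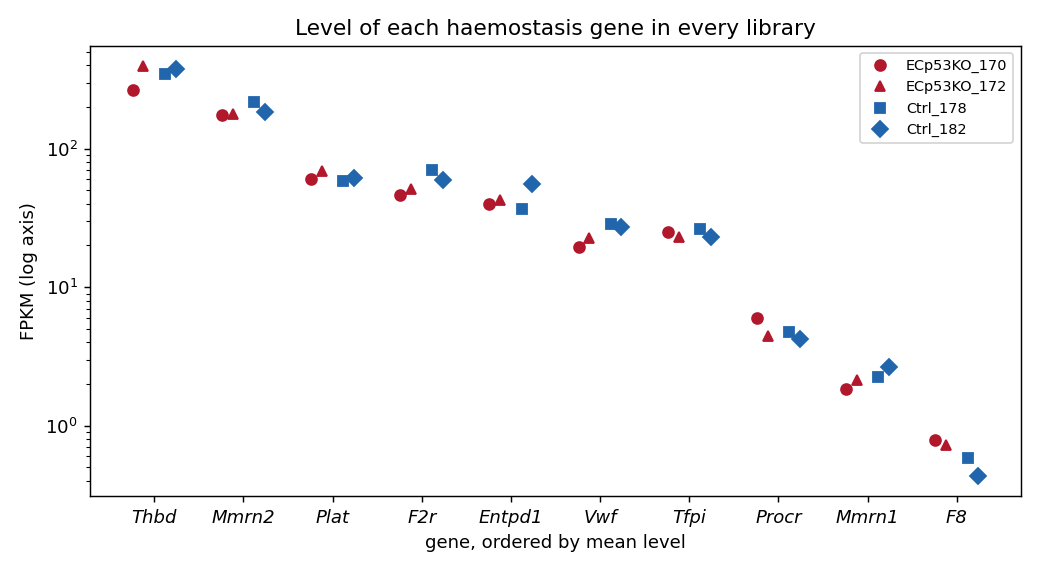
FPKM (log axis) of the 10 genes in each library, ECp53KO in red and Ctrl in blue, with 1 point per library and genes ordered by mean level. Levels fall from Thbd (264 to 392 FPKM) to F8 (0.435 to 0.791 FPKM), and for each gene the 4 libraries lie close together on this scale.

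Vwf (chromosome 6, 125552948 to 125686679, GRCm38) encodes von Willebrand factor. It stood at 19.5 and 22.8 FPKM in the ECp53KO libraries, against 28.3 and 27.4 FPKM in the Ctrl libraries. Both ECp53KO libraries were lower than either Ctrl library. The mean was 21.1 ± 2.36 FPKM in ECp53KO and 27.9 ± 0.685 FPKM in Ctrl (SD, n = 2 each), and the log2 fold change was -0.39 ± 0.16 (SE; 95% interval -0.79 to 0.01; limma adjusted p = 0.864). The value is based on an estimated 1969 to 5480 fragments per library. With each library's length trend removed, a fit that bears on Vwf because its transcript of 8834 nucleotides is long, the fold change was -0.26.

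Capillary endothelium is known to hold less von Willebrand factor than larger vessels and endocardium, so markers of those cells stand beside it. The 6 endocardial markers summed to 54.5 and 63.1 FPKM in the ECp53KO libraries, against 72.8 and 87.4 FPKM in the Ctrl libraries, and 3 of the 5 that were tested (Npr3, Cytl1 and Foxc1) were lower in each ECp53KO library than in each Ctrl library, as were 16.8% of all tested genes. Npr3, a natriuretic peptide receptor of the endocardium, stood at 1.90 and 1.99 FPKM in ECp53KO, against 2.96 and 5.92 FPKM in Ctrl. The 6 venous markers summed to 222 and 260 FPKM in ECp53KO, against 279 and 210 FPKM in Ctrl, with the venous transcription factor Nr2f2 at 2.98 and 3.60 FPKM in ECp53KO, against 5.03 and 5.09 FPKM in Ctrl and the venular receptor Ackr1 at 0.0853 and 0.294 FPKM in ECp53KO, against 0.356 and 0.433 FPKM in Ctrl. Of the 4 venous markers tested, 2 had a positive and 2 a negative fold change, and the groups overlapped for Ephb4, a venous ephrin receptor and the most abundant of them, at 129 and 147 FPKM in ECp53KO, against 131 and 120 FPKM in Ctrl. By limma 0 endocardial and 0 venous markers passed. Their part in the Vwf difference was not tested.

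F8 (chromosome X, 75170344 to 75382738) encodes factor VIII, which circulates bound to von Willebrand factor. It was the lowest member, at 0.791 and 0.726 FPKM in the ECp53KO libraries, against 0.585 and 0.435 FPKM in the Ctrl libraries, or an estimated 63 to 96 fragments per library. The 2 ECp53KO libraries were above both Ctrl libraries (19.1% of all tested genes were), the opposite arrangement to that of Vwf. Among the other coagulation genes, also low, F2, F11, F12, F13b, Fga, Fgb, Fgg and Kng1 were arranged like F8. For F5, F7, F9, F10, F13a1, Klkb1 and Kng2 the groups overlapped, and F3 was lower in ECp53KO. F8 had a mean under 1 FPKM and was not tested. Its mean difference was 0.22 on the log2(FPKM + 1) scale, and in the fit with no filter it did not pass (limma adjusted p = 0.853). The ratio of Vwf to F8 was 24.6 and 31.4 in ECp53KO and 48.4 and 62.9 in Ctrl. ECp53KO_172 and Ctrl_182 are the libraries with Xist above 1 FPKM. Since the groups did not overlap, F8 was higher in ECp53KO in any pairing of libraries, so pairing them by Xist gives no further information. The part of the Xist level in F8 was not tested.

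Genes for the storage and release of von Willebrand factor gave no call. Of 18 measured, 14 were tested and 0 passed, 8 with a positive and 6 with a negative fold change (median 0.13, against 0.01 over all tested genes). Rab27a, a small GTPase of the storage granules, stood at 4.21 and 2.73 FPKM in the ECp53KO libraries, against 4.62 and 7.40 FPKM in the Ctrl libraries (limma adjusted p = 0.864). Edn1, the endothelin precursor, stood at 11.3 and 12.5 FPKM in ECp53KO, against 9.71 and 8.68 FPKM in Ctrl (limma adjusted p = 0.864). The most abundant were Mcfd2, at 68.8 and 54.0 FPKM in ECp53KO, against 54.2 and 54.5 FPKM in Ctrl, and Lman1, at 40.0 and 34.8 FPKM in ECp53KO, against 34.9 and 33.9 FPKM in Ctrl. Their products form the cargo receptor that carries factors V and VIII out of the endoplasmic reticulum.

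Thbd (chromosome 2, 148404471 to 148408188), a gene of a single exon, encodes thrombomodulin. It was the most abundant member and ranked 221 by mean FPKM among all genes other than small RNA loci. It stood at 264 and 392 FPKM in the ECp53KO libraries, against 348 and 373 FPKM in the Ctrl libraries. ECp53KO_170 was the lowest and ECp53KO_172 the highest of the 4, so the groups overlapped. The log2 fold change was -0.16 ± 0.26 (95% interval -0.82 to 0.50; limma adjusted p = 0.914), and it was 0.12 without ECp53KO_170 and -0.45 without ECp53KO_172. Klf2 and Klf4, flow-induced transcription factors known to raise thrombomodulin, were abundant too, Klf2 at 615 and 587 FPKM in ECp53KO, against 547 and 709 FPKM in Ctrl and Klf4 at 243 and 272 FPKM in ECp53KO, against 249 and 369 FPKM in Ctrl (limma adjusted p = 0.975 and 0.882).

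Procr (chromosome 2, 155751125 to 155755478) encodes the endothelial protein C receptor, which presents protein C to the thrombin and thrombomodulin complex. It was low, at 6.01 and 4.46 FPKM in the ECp53KO libraries, against 4.76 and 4.22 FPKM in the Ctrl libraries. The groups overlapped, with ECp53KO_170 the highest. The log2 fold change was 0.17 ± 0.21 (95% interval -0.36 to 0.70; limma adjusted p = 0.892). Thbd exceeded Procr 43.9 and 88.0 times in ECp53KO_170 and ECp53KO_172 and 73.2 and 88.3 times in Ctrl_178 and Ctrl_182, so within each library the cofactor's transcript was far more abundant per length than the receptor's.

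Tfpi (chromosome 2, 84432855 to 84476775) encodes tissue factor pathway inhibitor. It stood at 25.2 and 23.0 FPKM in the ECp53KO libraries, against 26.4 and 23.1 FPKM in the Ctrl libraries, and the groups overlapped. The log2 fold change was -0.04 ± 0.16 (95% interval -0.43 to 0.36; limma adjusted p = 0.969), the smallest among the members. F3, which encodes tissue factor, the trigger that TFPI blocks, was listed at 0.0487 and 0 FPKM in the ECp53KO libraries, against 0.0507 and 0.0494 FPKM in the Ctrl libraries.

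The wider list of anticoagulant genes, which also takes in related ones such as Gas6, likewise gave no call. Of 12 measured, 7 were tested and 0 passed (median -0.06). Anxa5, a phospholipid-binding annexin, and Gas6, the vitamin K-dependent ligand of the TAM receptors, were the most abundant of them apart from Thbd. Anxa5 stood at 321 and 250 FPKM in the ECp53KO libraries, against 280 and 276 FPKM in the Ctrl libraries, and Gas6 at 237 and 204 FPKM in ECp53KO, against 277 and 247 FPKM in Ctrl (limma adjusted p = 0.986 and 0.864). Tfpi2, which encodes a related protease inhibitor, stood at 5.99 and 10.0 FPKM in ECp53KO, against 10.99 and 8.74 FPKM in Ctrl. Heparan sulfate, the surface sugar that activates antithrombin, was covered by 14 measured genes, of which 10 were tested and 0 passed (median -0.11). Hspg2, the core protein perlecan, stood at 227 and 381 FPKM in ECp53KO, against 525 and 365 FPKM in Ctrl, and Ndst1, a sulfotransferase of the chain, at 11.3 and 16.4 FPKM in ECp53KO, against 17.4 and 18.3 FPKM in Ctrl (limma adjusted p = 0.864 each). Sdc3, a syndecan core protein, stood at 101.1 and 115 FPKM in ECp53KO, against 136 and 104 FPKM in Ctrl.

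F2r (chromosome 13, 95601780 to 95618466) encodes PAR1, the main thrombin receptor of endothelium, which thrombin activates by cutting its N-terminus. It stood at 46.3 and 51.2 FPKM in the ECp53KO libraries, against 69.9 and 59.5 FPKM in the Ctrl libraries. Both ECp53KO libraries were lower than either Ctrl library. The mean was 48.7 ± 3.47 FPKM in ECp53KO and 64.7 ± 7.37 FPKM in Ctrl (SD, n = 2 each), and the log2 fold change was -0.40 ± 0.17 (95% interval -0.82 to 0.02; limma adjusted p = 0.864). Of all tested genes, 15.8% had a fold change of at least this size in either direction. It ran from -0.52 to -0.28 over the alternatives.

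The related receptors F2rl1, which encodes PAR2, and F2rl3, which encodes PAR4, were arranged like F2r. F2rl3 stood at 3.13 and 3.60 FPKM in the ECp53KO libraries, against 6.31 and 5.11 FPKM in the Ctrl libraries (log2 fold change -0.62 ± 0.20, 95% interval -1.12 to -0.11, limma adjusted p = 0.864). F2rl1 stood at 0.638 and 1.43 FPKM in ECp53KO, against 1.83 and 1.47 FPKM in Ctrl (log2 fold change -0.41 ± 0.29, limma adjusted p = 0.864), and its fold change was -0.12 without ECp53KO_170 and -0.69 without ECp53KO_172. Thus 3 of 3 tested receptors of this family were lower in each ECp53KO library than in each Ctrl library, where 16.8% of all tested genes were, and 0 passed the test. F2rl2, which encodes PAR3, was listed at 0 in both ECp53KO libraries and in Ctrl_178 and at 0.1096 FPKM in Ctrl_182.

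**Figure D2:**
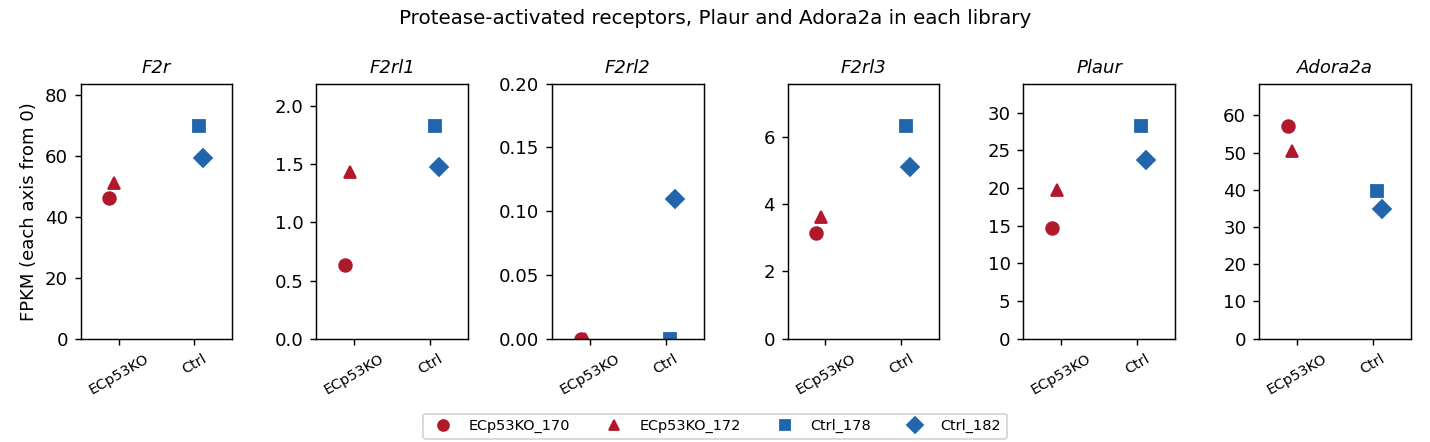
FPKM of the 4 protease-activated receptor genes, of Plaur and of Adora2a, with 1 point per library, ECp53KO left of Ctrl, and each vertical axis starting at 0. F2r, F2rl1, F2rl3 and Plaur are lower in each ECp53KO library than in each Ctrl library, Adora2a is higher in both, and none of them passed the test.

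Plat (chromosome 8, 22757722 to 22782848) encodes tissue plasminogen activator. It stood at 60.7 and 68.6 FPKM in the ECp53KO libraries, against 58.5 and 61.2 FPKM in the Ctrl libraries, with the groups overlapping. The log2 fold change was 0.11 ± 0.15 (95% interval -0.29 to 0.50; limma adjusted p = 0.907), and it was -0.01 after rescaling to TPM.

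Of 12 measured genes of the plasminogen system, 8 were tested, 4 with a positive and 4 with a negative fold change, and 0 passed (median 0.01). Plaur, the receptor of urokinase, stood at 14.7 and 19.7 FPKM in the ECp53KO libraries, against 28.2 and 23.7 FPKM in the Ctrl libraries (log2 fold change -0.58 ± 0.20, 95% interval -1.09 to -0.06, limma adjusted p = 0.864). S100a10 and Anxa2, whose products form a surface complex that binds plasminogen, were the most abundant. S100a10 stood at 693 and 587 FPKM in ECp53KO, against 617 and 664 FPKM in Ctrl and Anxa2 at 502 and 409 FPKM in ECp53KO, against 448 and 342 FPKM in Ctrl (limma adjusted p = 0.997 and 0.889).

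Entpd1 (chromosome 19, 40612366 to 40741602) encodes CD39. It stood at 39.9 and 42.9 FPKM in the ECp53KO libraries, against 36.5 and 55.6 FPKM in the Ctrl libraries. The 2 Ctrl libraries were the lowest and the highest of the 4, so the groups overlapped. The log2 fold change was -0.12 ± 0.23 (95% interval -0.72 to 0.48; limma adjusted p = 0.934), and it was 0.18 without Ctrl_182 and -0.42 without Ctrl_178. Nt5e, which encodes CD73, the enzyme that turns the AMP made by CD39 into adenosine, was low, at 1.33 and 0.831 FPKM in ECp53KO, against 0.603 and 1.60 FPKM in Ctrl.

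Among 15 measured genes of nucleotide, prostacyclin and nitric oxide signalling, 7 were tested and 0 passed (median -0.12). Adora2a, an adenosine receptor, stood at 57.1 and 50.3 FPKM in the ECp53KO libraries, against 39.8 and 34.8 FPKM in the Ctrl libraries (log2 fold change 0.52 ± 0.16, 95% interval 0.10 to 0.93, limma adjusted p = 0.864). Ptgs1, the cyclooxygenase COX-1, stood at 15.8 and 17.7 FPKM in ECp53KO, against 17.8 and 28.5 FPKM in Ctrl, and Nos3, the endothelial nitric oxide synthase, at 136 and 167 FPKM in ECp53KO, against 159 and 175 FPKM in Ctrl (limma adjusted p = 0.864 and 0.897).

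Mmrn1 (chromosome 6, 60944317 to 60989378) and Mmrn2 (chromosome 14, 34375504 to 34404287) encode multimerins, large matrix proteins of the EMILIN family. Multimerin-1 is stored in platelets and endothelium and binds factor V, and multimerin-2 coats the outer side of endothelium. Mmrn1 stood at 1.84 and 2.13 FPKM in the ECp53KO libraries, against 2.24 and 2.64 FPKM in the Ctrl libraries, and Mmrn2 at 176 and 177 FPKM in the ECp53KO libraries, against 219 and 183 FPKM in the Ctrl libraries. Both ECp53KO libraries were below both Ctrl libraries for each gene, by narrow margins. The log2 fold change was -0.20 ± 0.21 for Mmrn1 (95% interval -0.75 to 0.34; limma adjusted p = 0.878) and -0.18 ± 0.18 for Mmrn2 (95% interval -0.65 to 0.28; limma adjusted p = 0.875). Leaving out a library moved the fold change of Mmrn2 to between -0.31 (without Ctrl_182) and -0.056 (without Ctrl_178), and that of Mmrn1 to between -0.29 (without Ctrl_178) and -0.12 (without Ctrl_182). The level of Mmrn2 was 69.5 to 97.8 times that of Mmrn1.

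Mmrn1 is also known as a transcript of lymphatic endothelium and of megakaryocytes, so markers of both stand beside it. The 6 lymphatic markers summed to 46.3 and 60.7 FPKM in the ECp53KO libraries, against 65.9 and 50.3 FPKM in the Ctrl libraries, with the defining transcription factor Prox1 at 0.0828 and 0.333 FPKM in ECp53KO, against 0.129 and 0.304 FPKM in Ctrl and Lyve1 at 2.40 and 2.997 FPKM in ECp53KO, against 3.84 and 5.44 FPKM in Ctrl. Flt4, the receptor VEGFR3, made up most of the lymphatic sum, at 29.7 and 42.7 FPKM in ECp53KO, against 47.5 and 34.5 FPKM in Ctrl, and the chemokine Ccl21a stood at 13.6 FPKM in both ECp53KO libraries, against 13.7 and 9.25 FPKM in Ctrl. The 12 platelet and megakaryocyte markers summed to 17.8 and 4.37 FPKM in ECp53KO, against 9.68 and 6.87 FPKM in Ctrl, with Treml1 listed at 0 in all libraries. Pf4 stood at 6.57 and 0.487 FPKM in ECp53KO, against 5.30 and 1.94 FPKM in Ctrl. Of the 4 tested, 3 had a positive and 1 a negative fold change. Of these, 2 (Gp9 and Clec1b) were higher in each ECp53KO library than in each Ctrl library, as were 19.1% of all tested genes. By limma 0 of either list passed, and the part of such cells in the level of Mmrn1 was not tested. Cd93 and Clec14a, receptors that bind multimerin-2, stood at 205 and 238 FPKM in ECp53KO, against 282 and 224 FPKM in Ctrl and at 65.9 and 72.7 FPKM in ECp53KO, against 75.8 and 74.7 FPKM in Ctrl (limma adjusted p = 0.887 and 0.896). Of the 8 genes of this family and its partners, 5 were tested and 0 passed (median -0.18).

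**Figure D3:**
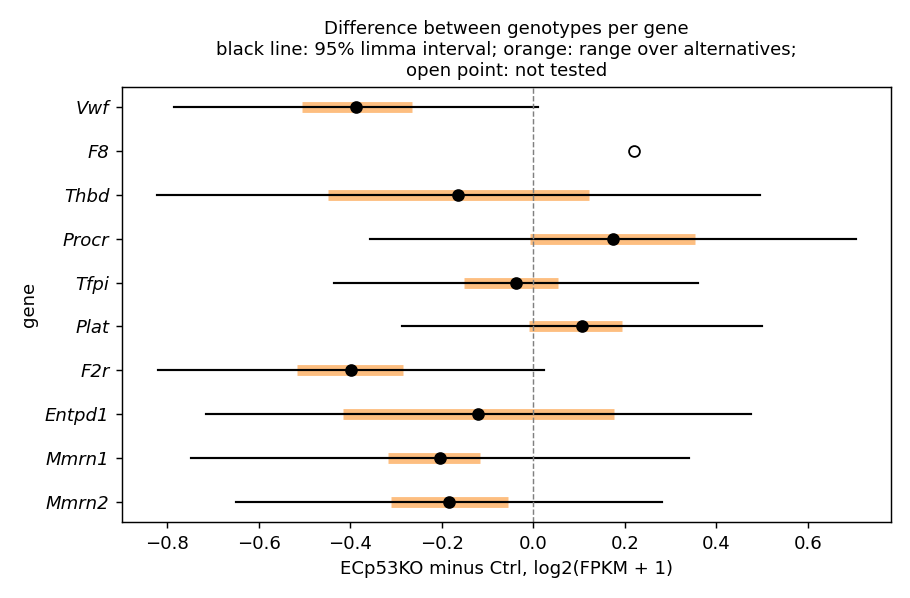
Difference between ECp53KO and Ctrl in log2(FPKM + 1) for each of the 10 genes, with points for the estimate, black lines for the 95% limma interval, orange bars for the range over the alternatives and an open point for F8, which was not tested. The interval of each of the 9 tested genes includes 0, with those of Vwf (-0.79 to 0.01) and F2r (-0.82 to 0.02) reaching it only at their upper end.

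Over the members together, 7 of 9 tested had a negative fold change (48.3% of all tested genes did). The median was -0.16, against 0.01 over all tested genes. Procr and Plat, which had positive fold changes, had the shortest transcripts of the 9, at 1597 and 2525 nucleotides. With the length trend removed they stood at 0.09 and 0.08, and the other 7 ran from -0.40 (F2r) to -0.02 (Tfpi). Beyond that fit, the part of transcript length was not tested. Vwf, F2r, Mmrn1 and Mmrn2, 4 of 9, were lower in each ECp53KO library than in each Ctrl library, which 16.8% of all tested genes were, and 0 were higher in this way (19.1% of all tested genes). Thbd, Procr, Tfpi, Plat and Entpd1 overlapped. A fold change of 0 was within the 95% interval of each tested member. As ratios of FPKM + 1, the intervals reached down to between 0.57 (Thbd and F2r) and 0.82 (Plat) and up to between 1.01 (Vwf) and 1.63 (Procr), and for low genes such as Mmrn1 the limits in FPKM itself lie farther from 1. These intervals are not limits of detection. With 2 libraries a group, a larger difference could also fail the adjusted threshold, as that of Trp53 did (log2 fold change -3.20, limma adjusted p = 0.146).

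Genes of coagulation factors and fibrinogen, many of which the liver secretes, were near the floor. Of the 17 genes of this list, which also holds F8 and F3, Fgb alone was tested. It met the filter only through the ECp53KO libraries, with a mean of 1.59 FPKM there, against 0.661 FPKM in Ctrl. Its direction is therefore no independent support. It stood at 2.02 and 1.16 FPKM in the ECp53KO libraries, against 0.991 and 0.332 FPKM in the Ctrl libraries (limma adjusted p = 0.864). The other fibrinogen chains were listed at 1.54 and 0.653 FPKM in ECp53KO, against 0.487 and 0.203 FPKM in Ctrl (Fga) and at 2.22 and 0.780 FPKM in ECp53KO, against 0.578 and 0.376 FPKM in Ctrl (Fgg). All 3 chains, of which Fga and Fgg were not tested, were higher in each ECp53KO library than in each Ctrl library. Of all tested genes 19.1% were, a share that leaves out genes with a mean under 1 FPKM, such as Fga and Fgg. All 3 chains were highest in ECp53KO_170, the library with the highest erythroid sum, and the part of RNA from outside the heart was not tested. Of 10 transcription regulators linked to endothelial haemostasis genes, 0 passed (5 positive and 5 negative, median -0.01). Mef2c stood at 28.9 and 28.8 FPKM in ECp53KO, against 25.0 and 22.4 FPKM in Ctrl and Fli1 at 67.2 and 67.0 FPKM in ECp53KO, against 53.6 and 64.0 FPKM in Ctrl.

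**Figure D4:**
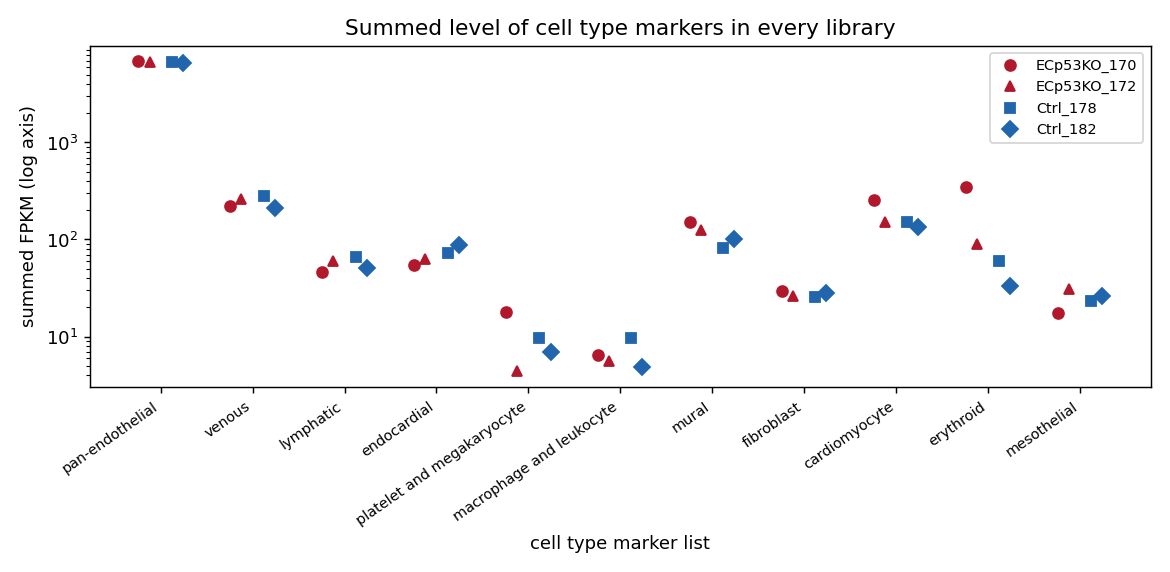
Summed FPKM (log axis) of 11 lists of cell type markers in each library, ECp53KO in red and Ctrl in blue, with 1 point per library. Pan-endothelial markers are the highest (6549 to 6848 FPKM). Endocardial markers are lower in both ECp53KO libraries (54.5 and 63.1 FPKM, against 72.8 and 87.4 FPKM in Ctrl). Pan-endothelial, mural (151 and 124 FPKM in ECp53KO, against 80.8 and 102 FPKM in Ctrl) and erythroid markers are higher in both. Erythroid markers are highest in ECp53KO_170 (344 FPKM). By limma 0 markers of these lists passed.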

How the data were processed

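RNA of 4 libraries was measured. Per the labels' protocols, a TruSeq kit (polyA selection, no strand) was used and 51-base read pairs were sequenced. TopHat2 2.1.0, Cufflinks 2.2.1, Trimmomatic 0.36, FastQC 0.11.5, bcl2fastq 2.17 and the build mm10 are named, with no roles, in the submitters' processing notes. Annotation and filters are not stated there. The authors deposited FPKM per gene and library, which are not counts. For depth, the commonest value of FPKM times transcript length among low genes was taken as 1 fragment.

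A log2(FPKM + 1) scale and limma 3.58.1 (R 4.3.3, intensity trend, two-sided) were used for the 11332 genes averaging 1 FPKM or more. P-values were adjusted over all of these by Benjamini-Hochberg, with a threshold of 0.05. The fit had 2 residual degrees of freedom and 3.15 from the shared variance. It was also run on simulated data with noise independent between genes and no length trend. That run therefore does not cover the length trend seen here. An exact permutation test of 2 against 2 cannot go below p = 0.333 and was not used. Positions are from RefSeq (GRCm38.p6) and transcript lengths from GENCODE M21, in which no other gene's exon overlaps a member's exons. Members and lists were chosen with earlier results of these data known. Named from each list were the 2 genes, other than members, with the smallest p and the 2 with the highest mean. Alternatives changed the pseudocount, filter, scaling, shrinkage, covariate, genes fitted, length trend, threshold and libraries.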

Additional observations from a re-analysis of the deposited data

How the results depend on the processing

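No haemostasis gene was called under any alternative: over 118 tested results of the members, the lowest limma adjusted p was 0.307, for Vwf without ECp53KO_172. No paired analysis was possible because ECp53KO and Ctrl have no replicate number in common. Directions of members changed in 6 of these results. Plat was -0.0080 after rescaling to TPM, which moved the median of all genes by -0.11, and relative to that median Plat was 0.09, F2r -0.42 and Vwf -0.41. On leaving out a library, Thbd ran from -0.45 to 0.12, Procr from -0.0065 to 0.35, Tfpi from -0.13 to 0.054 and Entpd1 from -0.42 to 0.18, while Vwf, F2r, Mmrn1 and Mmrn2 stayed negative in every alternative run. A lone library of a group is there assumed to vary like the other group. On all 4 libraries, the unadjusted limma p of Vwf ran from 0.0431 with no filter to 0.0848 with the length trend removed. It was 0.0490 with pan-endothelial markers scaled to an equal mean and 0.0831 with Xist above 1 FPKM as a covariate. That of F2r ran from 0.0370 with the length trend removed to 0.0939 with the Xist covariate, and was 0.0443 with no filter.

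Of the other named genes, Anxa5 was -0.090 after rescaling to TPM, -0.043 with quantile normalization and -0.052 with the length trend removed. On leaving out a library the ranges that crossed 0 were -0.15 to 0.21 for Anxa5, -0.63 to 0.031 for Tfpi2, -0.33 to 0.048 for Sdc3, -0.13 to 0.11 for S100a10, -0.0082 to 0.34 for Mcfd2, -0.24 to 0.14 for Klf2 and -0.52 to 0.047 for Klf4. Trp53 passed with robust shrinkage, with Xist above 1 FPKM as a covariate and without small RNA loci (limma adjusted p = 0.0412, 0.0208 and 0.0127), and its adjusted p ran from 0.0127 to 0.620 over all alternatives.

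Over all genes, 3 were higher and 10 lower in ECp53KO. The count higher was 5 with the smaller pseudocount (0.1), with robust shrinkage and with a threshold of 0.1, and 1 with no filter, and the count lower was 4 when small RNA loci were not fitted. Fits on 3 libraries called 1 to 21 genes higher and 12 to 53 lower: 18 higher and 15 lower without ECp53KO_170, 21 higher and 12 lower without ECp53KO_172, 1 higher and 53 lower without Ctrl_178, and 5 higher and 34 lower without Ctrl_182. The cause of these changes was not tested. Depth limits F8, Mmrn1 and Procr most, each with an estimated 63 to 268 fragments per library.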
